A study of Rattus norvegicus with 13 samples.

Results

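The genes described here code for proteins that bring fatty acids into fat cells and carry them inside: the lipase Lpl and its anchor Gpihbp1, the surface proteins Cd36, Slc27a1 and Vldlr, and the intracellular carriers Fabp4, Fabp5 and Fabp3. They were chosen by name. All 8 are on the array, among 14506 genes with a probe of their own, and each is represented by its brightest probe. The animals were 13 female rats of the outbred Sprague Dawley strain, and RNA of a piece of fat from each was read on 1 Affymetrix array. In the control group were 7 daughters of males on standard chow with 9% fat, and in the high-fat group 6 daughters of males on pellets with 43% fat. The males were mated at 15 weeks of age to chow-fed females, and the daughters of both groups were themselves weaned onto chow at 3 weeks and sampled at 14 weeks. The labels name neither the fat depot nor the father or litter of each daughter. The p-values therefore measure the spread between these animals and may be too small where some are sisters. The comparison asks whether the father's diet is reflected in these genes in daughters that never ate it.

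Fat cells take fatty acids from circulating lipoproteins and from albumin. Lipoprotein lipase (Lpl) is secreted by adipocytes and splits triglycerides at the capillary wall, where Gpihbp1, a protein of capillary endothelium, holds it, and the VLDL receptor (Vldlr) binds triglyceride-rich particles and helps the lipase act on them. Cd36 binds long-chain fatty acids at the membrane, and Slc27a1 (FATP1), a transport protein with acyl-CoA synthetase activity, is prominent in fat and muscle. Inside the cell fatty acids are bound by small carriers: Fabp4 (aP2) is the main one of adipocytes and is also found in macrophages and capillary endothelium, Fabp5 is the epidermal form and is shared with macrophages and epithelia, and Fabp3 is the form of heart, oxidative skeletal muscle and brown fat.

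Of the 8 genes, 4 matched the RefSeq promoter table of build GRCr8: Cd36, Fabp3, Slc27a1 and Vldlr. The 250 bases upstream of the annotated start are shown for Fabp3, the member that differed most between animals, and for Cd36. By the brighter of the 2 Cd36 probes, but not by the dimmer one, the 4 lowest animals were among the 5 highest for Fabp3. They lie on the plus strand at chr5:147935875-147936124 (Fabp3) and chr4:18246332-18246581 (Cd36), are written 5′ to 3′, and capitals mark letters that match CANNTG (the E-box) or TATAAA on either strand.
Fabp3: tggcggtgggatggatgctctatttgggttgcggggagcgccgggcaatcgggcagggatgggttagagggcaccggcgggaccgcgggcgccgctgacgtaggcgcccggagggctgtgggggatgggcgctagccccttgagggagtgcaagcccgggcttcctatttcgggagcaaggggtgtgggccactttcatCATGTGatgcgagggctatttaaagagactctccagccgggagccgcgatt
Cd36: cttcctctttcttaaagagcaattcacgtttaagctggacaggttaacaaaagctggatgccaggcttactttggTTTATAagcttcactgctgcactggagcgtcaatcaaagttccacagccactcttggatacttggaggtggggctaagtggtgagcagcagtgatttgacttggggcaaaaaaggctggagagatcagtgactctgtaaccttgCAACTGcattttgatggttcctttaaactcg

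The Fabp3 window is rich in G and C (65.6%) and that of Cd36 is not (45.6%), against a median of 51.2% over 33469 rat promoters cut to the same length. Each holds 1 CANNTG, a pattern found in 65.5% of promoters, and the Cd36 window also holds 1 TATAAA, on the minus strand, a pattern found in 12.9%. Neither holds AGGTCA, the half-site of nuclear receptors (14.1% of promoters), or GGGCGG (30.5%). Slc27a1 holds 1 AGGTCA and 2 CANNTG, and Vldlr holds 3 GGGCGG. These matches describe letters only.

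Values are log2 levels as deposited, so a difference of 1 is a 2-fold difference in signal, and no level of one gene is set against that of another. Array medians lay between 7.66 and 7.72 and the standard deviation over all probes of an array between 1.78 and 1.96. The label of fat was borne out by adiponectin (Adipoq), a product of adipocytes, at 13.64 to 13.96 on all arrays. Some fat pieces also had skeletal muscle signal or Ucp1. The mean of 13 skeletal muscle markers was 12.08 in control 662, 11.95 in control 664, 11.82 in high-fat 629 and 9.25 in high-fat 619, and 7.33 to 7.47 in the other 9 animals. Ucp1, the uncoupling protein of brown fat, was 11.02 in high-fat 629, 10.96 in high-fat 663, 9.76 in control 662 and 9.28 in control 658, and 6.11 to 7.40 elsewhere. In such bulk tissue fewer cells of a type and less RNA per cell cannot be told apart. The group difference of each of the 8 genes was also computed without the animals with most muscle signal or most Ucp1.

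Between the groups, 7 of the 8 genes had a higher mean in daughters of high-fat fathers and Fabp5 a lower one. The median difference was 0.09 log2 units, against 0.03 over all genes and 0.07 over the tenth of genes with the highest levels, where 83.7% of genes had a higher mean in the high-fat group and 58% did so over all genes. None of the 8 passed limma's test with Benjamini-Hochberg adjustment over all genes. Of 14506 genes 0 passed (0%), and the smallest adjusted p was 0.53. At an unadjusted p under 0.05 limma gave 2 of the 8, Fabp4 and Slc27a1, both higher. This threshold took 7.96% of all genes (5.42% with a higher and 2.54% with a lower high-fat mean) and 7.79% of the tenth with the highest levels (7.51% with a higher high-fat mean). The exact permutation test over 1716 arrangements of the animals gave 1 of the 8, Fabp4, against 7.89% of all genes, and with adjustment over all genes its smallest p was 0.56. In 0 of the 8 did all high-fat animals lie above all controls, as they did in 0.0551% of all genes.

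**Figure D1:**
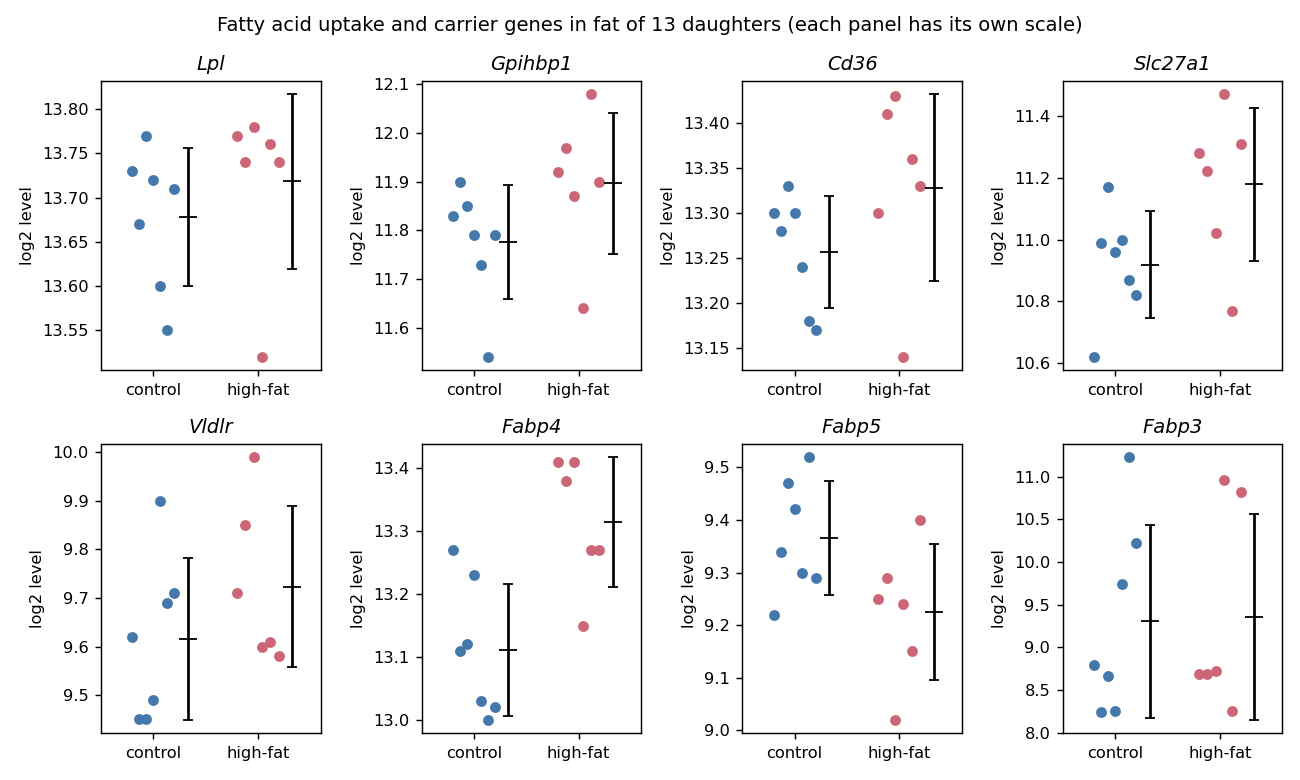
Log2 level of each of the 8 genes (vertical axis, each panel on its own scale) in 7 control and 6 high-fat daughters, with 1 point per animal and the group mean ± SD in black. All 6 high-fat animals lie above the control mean for Fabp4, 4 of 6 exceed all controls for Slc27a1, and Fabp3 spreads over 3.00 log2 units across the 13 animals, with high and low animals in both groups.

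**Figure D2:**
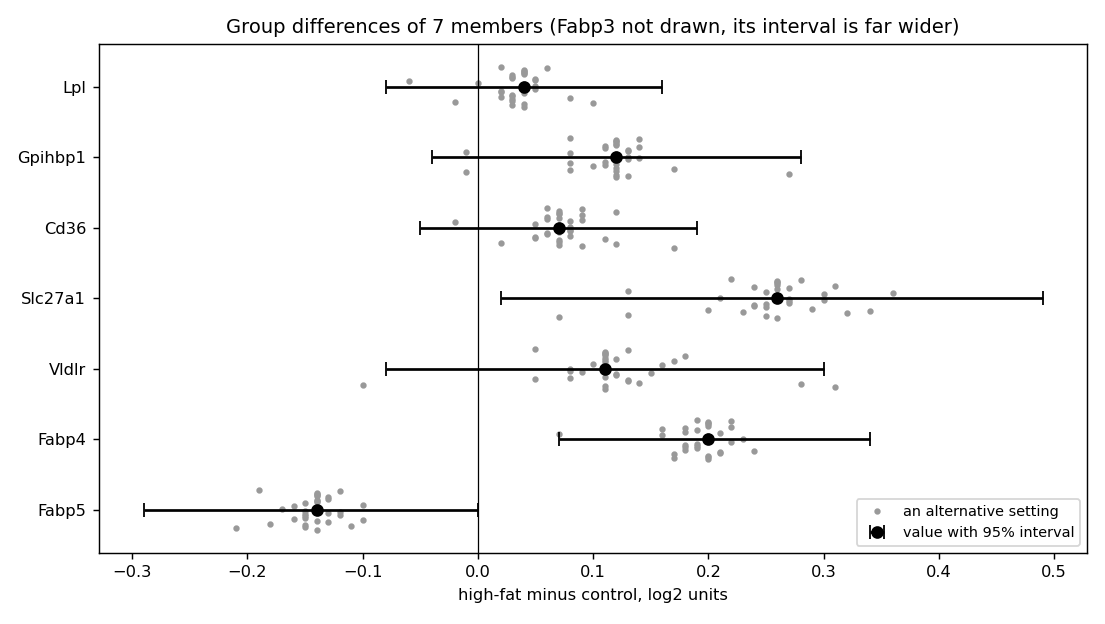
Difference of the group means, high-fat minus control, in log2 units (horizontal axis) for 7 of the genes. Black points are the values with limma's 95% interval, and grey points are the values under the other settings tried. The intervals of Fabp4 and Slc27a1 lie above 0 before any adjustment.

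Lpl, the lipase itself, differed little between animals, with a range of 0.26 over the 13 arrays. Its probe is bright, and whether it is near saturation was not assessed. In control daughters its lowest, median and highest log2 levels were 13.55, 13.71 and 13.77, and in high-fat daughters they were 13.52, 13.75 and 13.78. The groups overlapped almost fully, and the lowest value of all was that of high-fat 629, which like control 662 had both muscle signal and Ucp1. The difference was 0.04 ± 0.06 log2 units (SE), with a 95% interval from -0.08 to 0.16 and a limma adjusted p of 0.746. With 1 animal left out it was between 0.02 (without control 658, control 662 or high-fat 624) and 0.08 (without high-fat 629).

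Gpihbp1, the capillary anchor of the lipase, had lowest, median and highest levels of 11.54, 11.79 and 11.90 in control and 11.64, 11.91 and 12.08 in high-fat daughters. High-fat 660, 620 and 619 lay above every control, while high-fat 629 lay below all controls but 662. The difference was 0.12 ± 0.07 (interval -0.04 to 0.28, limma adjusted p 0.529). With 1 animal left out it was between 0.08 ± 0.07 (without control 662 or high-fat 660) and 0.17 ± 0.07 (without high-fat 629). It was 0.13 ± 0.07 without the 4 animals with most muscle signal and -0.01 ± 0.08 with the mean of the adipocyte markers as a covariate. Of the markers of the endothelium, the cell that makes Gpihbp1, 9 of 9 had a higher mean in the high-fat group. So did 58% of all genes and 83.7% of the tenth with the highest levels. The smallest unadjusted limma p among the endothelial markers was 0.0748 (Robo4). Their list means were 9.80 to 10.28 in control and 10.13 to 10.41 in high-fat daughters. With that list mean as a covariate the difference in Gpihbp1 was 0.08 ± 0.07. Pecam1, a defining endothelial marker, was 10.39 ± 0.22 (SD) in the 7 controls and 10.46 ± 0.18 in the 6 others. In daughters 619 to 631 Gpihbp1 differed by -0.01 ± 0.09 and in daughters 656 to 664 by 0.27 ± 0.12, and the difference between these ranges of animal numbers had an unadjusted limma p of 0.0698.

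The fatty acid receptor Cd36 is read by 2 probes that carry the same RefSeq accession and did not give the same size of difference. By the brighter probe its lowest, median and highest levels were 13.17, 13.28 and 13.33 in control and 13.14, 13.34 and 13.43 in high-fat daughters, a difference of 0.07 ± 0.05 (interval -0.05 to 0.19, limma adjusted p 0.562). Only high-fat 624, 620 and 660 lay above all controls. By the dimmer probe the controls lay between 11.88 and 12.06 and the high-fat daughters between 12.05 and 12.25, so that 5 of 6 high-fat daughters lay above every control and the sixth, 629, fell within the control range. That difference was 0.17 ± 0.05, with an exact permutation p of 0.00117 before adjustment and a limma adjusted p of 0.529 over all genes. By the dimmer probe controls 658 (11.88), 664 (11.90) and 656 (11.99) were the lowest animals, and 662 was the highest control (12.06). The dimmer probe was set beside the brighter one after its values were seen, and the brighter one is the value reported for Cd36 elsewhere. RefSeq lists 2 further Cd36-like loci on chromosome 4, Cd36l1 and Cd36-ps1, and whether either probe also reads them was not tested.

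Slc27a1, the fatty acid transport protein FATP1, had the largest difference of the 8. Its lowest, median and highest levels were 10.62, 10.96 and 11.17 in control and 10.77, 11.25 and 11.47 in high-fat daughters. High-fat 629, 663, 619 and 620 lay above every control, and high-fat 660 lay below all controls but 622. The difference was 0.26 ± 0.11, which corresponds to 1.20-fold, with an interval from 0.02 to 0.49, a limma adjusted p of 0.529 and an exact permutation p of 0.0507 before adjustment. Without the 4 animals with most muscle signal the difference was 0.13 ± 0.13, and without these and the 4 with most Ucp1 it was 0.07 ± 0.15. With the mean of the muscle markers as a covariate it was 0.26 ± 0.11, with that of the brown fat markers 0.25 ± 0.10 and with both 0.25 ± 0.11. The 7 markers in that brown fat mean did not all follow Ucp1. In high-fat 629 and 663 Otop1 was 8.80 and 8.94, against 7.20 to 8.29 elsewhere. Elovl3 was 6.22 and 6.13 in them, against 6.04 to 6.82 elsewhere. Cox8b was 8.89 in control 664, where Ucp1 was 6.11. The highest Slc27a1 value of all was that of high-fat 629, and without that animal the difference in Slc27a1 was 0.20. The unadjusted p was over 0.05, at up to 0.084, when any 1 of controls 622, 662 and 664 or high-fat 619, 620, 629 and 663 was left out. The difference was 0.36 ± 0.13 with the adipocyte mean as a covariate.

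Vldlr, the lipoprotein receptor, had lowest, median and highest levels of 9.45, 9.62 and 9.90 in control and 9.58, 9.66 and 9.99 in high-fat daughters, and the groups overlapped. The difference was 0.11 ± 0.09 (interval -0.08 to 0.30, limma adjusted p 0.583). Without the animals with most muscle signal or most Ucp1 it was 0.31 ± 0.10, with an unadjusted limma p of 0.013, with array weights it was 0.18 ± 0.08 (unadjusted limma p 0.032), and without high-fat 624 it was 0.05 ± 0.09. It did not have the same sign in both ranges of animal numbers, whose meaning is not given. In daughters 619 to 631, with 3 controls and 4 high-fat, it was 0.28 ± 0.10, with group means of 9.51 and 9.79. In daughters 656 to 664, with 4 controls and 2 high-fat, it was -0.10 ± 0.13, with means of 9.70 and 9.59. The difference between the ranges, -0.38, had an unadjusted limma p of 0.0389 and an adjusted p of 0.999, where 3.47% of all genes had an unadjusted p under 0.05 and 0% passed. It was the only one of the 8 genes with such a p.

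Fabp4, the carrier of adipocytes, had the smallest limma and exact permutation p of the 8 genes as read by their brightest probes. The dimmer Cd36 probe had a smaller exact permutation p, 0.00117 before adjustment. Control levels of Fabp4 had a median of 13.11 and a highest value of 13.27, with 662, 664 and 658 lowest at 13.03 or less. Its lowest, median and highest high-fat levels were 13.15, 13.33 and 13.41. All 6 high-fat daughters lay above the control mean, 3 of them (619, 620 and 624, at 13.38 to 13.41) above every control, and 5 of 7 controls lay below every high-fat animal. The means were 13.11 ± 0.11 (SD, n = 7) and 13.31 ± 0.11 (SD, n = 6), and the difference of 0.20 ± 0.06 corresponds to 1.15-fold, with an interval from 0.07 to 0.34. Its exact permutation p was 0.00932 before adjustment, and its limma adjusted p was 0.529. Without the 4 animals with most muscle signal the difference was 0.18 ± 0.07, without these and the 4 with most Ucp1 it was 0.17 ± 0.08 (unadjusted limma p 0.058), and within the 2 ranges of animal numbers it was 0.17 ± 0.09 and 0.20 ± 0.11. Of 9 adipocyte markers 8 had a higher mean in the high-fat group. So did 58% of all genes and 83.7% of the tenth with the highest levels. The means of the marker list were 12.21 to 12.37 in control and 12.23 to 12.46 in high-fat daughters. Plin1, which coats lipid droplets and was named after its values were seen, differed by 0.18 ± 0.06, and Adipoq by 0.04 ± 0.06. With the adipocyte mean as a covariate the difference in Fabp4 was 0.07 ± 0.06. The standard deviation over all probes was highest, at 1.96, on the arrays of 619, 620 and 624, and lowest, at 1.78, on that of control 658. Centred within groups, Fabp4 had a Pearson's r with it of 0.48 over 13 animals. Over the 9 animals left without the 4 with most muscle signal this r was 0.90. With the array standard deviation as a covariate the difference in Fabp4 was 0.16 ± 0.06, and its part was not tested further.

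Fabp5, the epidermal carrier, was the only member whose mean was lower in high-fat than in control daughters. Its lowest, median and highest levels were 9.22, 9.34 and 9.52 in control and 9.02, 9.24 and 9.40 in high-fat daughters. High-fat 624 and 660 lay below every control, and no high-fat animal lay above them all. The difference was -0.14 ± 0.07 (interval -0.29 to 0.00, limma adjusted p 0.529), with an exact permutation p of 0.0542 before adjustment. It stayed between -0.18 and -0.10 when any 1 animal was left out. The 2 Fabp5 probes held identical values on all 13 arrays and count as 1 measurement, and RefSeq lists 2 Fabp5 pseudogenes on other chromosomes whose part in the signal was not tested. Among cell types known to share this carrier, macrophage markers were higher for 5 genes and lower for 5, with a median difference of 0.01. Of 8 mammary and skin epithelium markers 7 were lower, with a median of -0.06, where 58% of all genes had a higher high-fat mean. These epithelial markers were dim, with gene means of 4.56 to 7.29, and Fabp5 had an r of 0.12 with their list mean. Their part in the Fabp5 signal was not tested.

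Fabp3, the carrier of oxidative muscle and brown fat, differed widely between animals of the same group. Its level was 11.23 in control 662, 10.96 in high-fat 629, 10.82 in high-fat 663, 10.22 in control 664 and 9.74 in control 658, and then dropped by a gap of 0.96 to the other 8 animals, which lay between 8.24 and 8.79. The highest and lowest animals were thus 7.97-fold apart, and 99.5% of genes had a standard deviation as small or smaller. The high values were in 3 of 7 controls and 2 of 6 high-fat daughters. The group difference was 0.05 ± 0.57 with an interval from -1.17 to 1.27, so a difference of 2-fold in either direction lies within it, and the limma adjusted p was 0.974. In the 4 control and 3 high-fat animals left without those with most muscle signal or most Ucp1 it was 0.07 ± 0.17. With the adipocyte mean as a covariate it was 1.13 ± 0.56 (unadjusted limma p 0.064), and it was 0.70 ± 0.53 in daughters 619 to 631 and -0.32 ± 0.91 in daughters 656 to 664.

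The 5 animals with high Fabp3 were not simply those with muscle. Controls 662 and 664 and high-fat 629 had skeletal actin (Acta1) at 13.70, 13.72 and 13.83. High-fat 663 and control 658 had Acta1 at 8.95 and 9.31, close to the 8.97 to 9.09 of animals with little of it, but had Ucp1 at 10.96 and 9.28. Control 664 had muscle without Ucp1, which was 6.11 there and the lowest of all. High-fat 619 stood out the other way, with Acta1 at 11.77 and Fabp3 at 8.69, among the low animals. The fast myosin Myh4 was 10.85 in that animal, and myoglobin (Mb), the oxygen store of oxidative fibres, was 8.83 there against 13.27, 13.11 and 13.04 in 662, 664 and 629. The slow myosin Myh7 was 9.93 and 10.12 in controls 662 and 664 and 6.79 to 7.17 in the other 11 animals, high-fat 629 included at 7.14. Myh4, Mb and Myh7 were named after their values were seen.

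**Figure D3:**
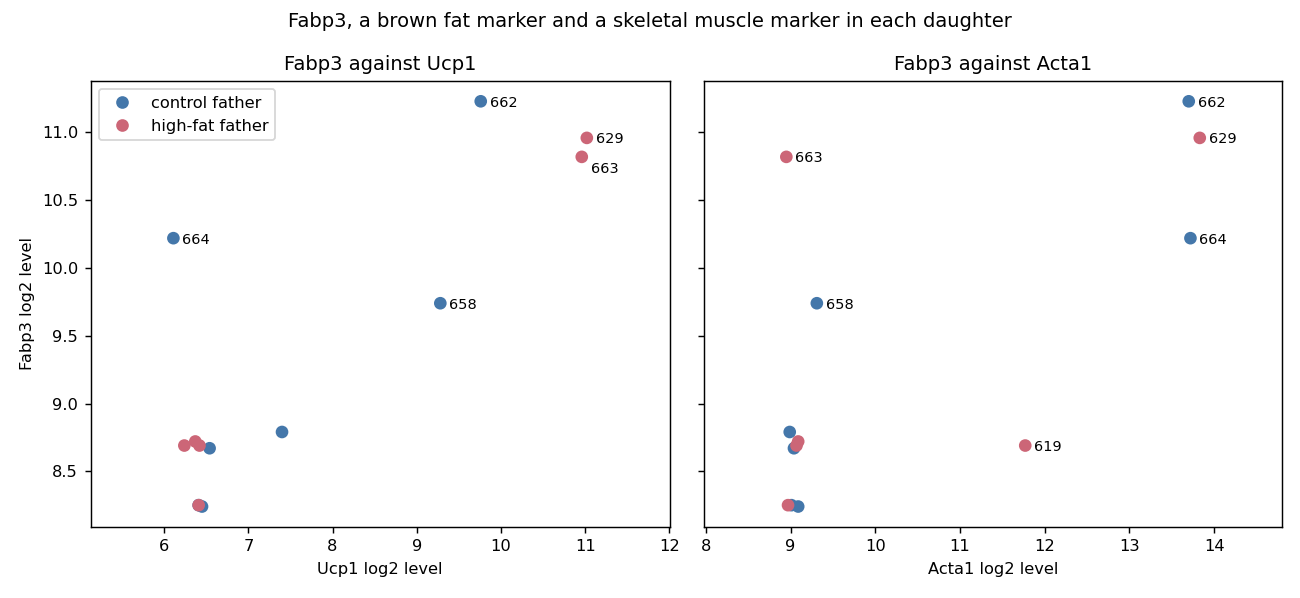
Fabp3 log2 level (vertical axis) against the brown fat marker Ucp1 (left) and the skeletal muscle marker Acta1 (right), 1 point per daughter, coloured by the father's diet. The labelled animals 658 and 663 are high for Fabp3 and Ucp1 but not Acta1, 664 is high for Fabp3 and Acta1 but not Ucp1, and 619 has Acta1 at 11.77 with Fabp3 at 8.69.

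The genes most like Fabp3 across animals, by Pearson's r of log2 values centred within each group, were Cpt1b, the muscle and brown fat form of carnitine palmitoyltransferase (0.97), Cox8b, a cytochrome oxidase subunit of heart, muscle and brown fat (0.96), and Ppm1k, a mitochondrial phosphatase of branched-chain amino acid breakdown (0.91). Over the 9 animals left without the 4 with most muscle signal these r were 0.94, 0.98 and 0.78. Cox8b was 9.94, 10.32, 8.61, 8.89 and 7.69 in 662, 629, 663, 664 and 658, and 6.33 to 6.99 in the others.

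Several of the other genes were low in the same animals. Controls 658 and 662 were among the 4 lowest animals for each of Lpl, Gpihbp1, Cd36 and Fabp4. High-fat 629 was among the 4 lowest for Lpl, Gpihbp1 and Cd36, and control 664 for Gpihbp1, Cd36 and Fabp4. Cd36 is read here, and in the pairs below, by its brighter probe only. By the dimmer one 662 was the highest control, at 12.06, and 629 was at 12.05. Controls 658 and 664 were low by that probe too, at 11.88 and 11.90. Of these animals 658, 662 and 629 had high Ucp1, and 662, 664 and 629 had the most muscle signal. Control 664 had the lowest Ucp1 of all, at 6.11. High-fat 663, the other animal with high Ucp1, was not low, with Lpl at 13.74 and Fabp4 at 13.27. High-fat 619, with a muscle mean of 9.25, was not low either, with Lpl at 13.77 and Fabp4 at 13.41. Among the 7 genes other than Fabp3, 21 pairs were compared after centring within groups, with 100000 permutations within groups. Pearson's r over 13 animals was 0.82 for Lpl with Gpihbp1, 0.80 for Lpl with Cd36, 0.76 for Cd36 with Fabp4 and 0.73 for Lpl with Fabp4, with permutation p of 0.0050, 0.0092, 0.0032 and 0.0054 and values adjusted over the 21 pairs of 0.038, 0.048, 0.038 and 0.038. Spearman's rho for the same pairs was 0.42, 0.63, 0.71 and 0.75, with permutation p of 0.17, 0.028, 0.0095 and 0.0070, and after adjustment 0.40, 0.20, 0.10 and 0.10, so that none of the 21 passed by rank. Without the 2 animals farthest from the median of the first gene r was 0.27, 0.42, 0.59 and 0.48. The relation of Lpl with Gpihbp1 rested on those animals, and the other relations were weaker without theirs. All arrays share 1 normalization, and 0.889% of all genes followed Lpl as closely as Cd36 did.

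**Figure D4:**
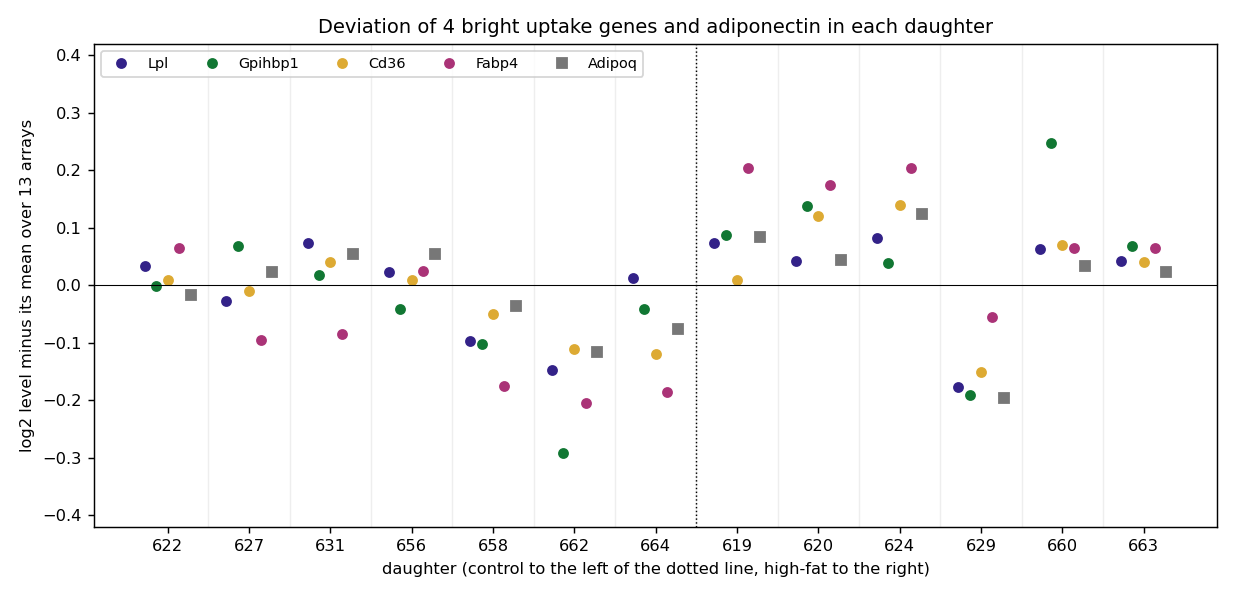
Log2 level of Lpl, Gpihbp1, Cd36, Fabp4 and Adipoq minus each gene's mean over all 13 arrays (vertical axis), by daughter (horizontal axis). Cd36 is drawn by its brighter probe. All 5 genes are below their means in controls 658 and 662 and high-fat 629, and all are above theirs in high-fat 619, 620, 624, 660 and 663.

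Outside the 8 genes, the closest patterns to Lpl were those of Actb (0.94), Arf4 (0.94) and Sparc (0.94), genes of the cytoskeleton, vesicle transport and extracellular matrix. Cd36, by its brighter probe, was closest to Aqp7, the glycerol channel of adipocytes (0.92), Ctsb, a lysosomal protease (0.90), and Adipoq (0.90). Gpihbp1 was closest to Igfbp7 (0.88), which endothelium secretes, Ndufa10 (0.86) and Fbxl19 (0.85). Fabp4 was closest to Psmd9 (0.93), Rhoa (0.92) and Ube2a (0.92). For Slc27a1 they were Slc5a3 (0.90), a myo-inositol transporter, Fam3d (0.84) and Brs3 (0.84). For Vldlr they were Cep85 (0.83), Ddias (0.80) and Slc4a7 (0.79), and for Fabp5 Slc22a3 (0.80), an organic cation transporter, Prlr, the prolactin receptor (0.78), and Or6c203c (0.77). Each is the highest r among all named genes over 13 animals and is given as a description.

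The other genes of fatty acid uptake were taken from a list of 52, of which 47 were measured. The high-fat mean was above the control mean for 33 of these and below it for 14, with a median difference of 0.07 and, as background, a higher high-fat mean for 58% of all genes and 83.7% of the tenth with the highest levels. None passed limma's test over all genes. At an unadjusted p under 0.05 there were 3 (6.38%, against 7.96% of all genes), Acsl1 and Scp2 higher and Lsr lower.

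Among 10 genes listed as regulators of lipases, which include the lipases Lipc and Lipg, 5 were higher and 5 lower, with a median of -0.01. Angptl4, which switches Lpl off in fat, differed by 0.16 ± 0.09 (11.37 and 11.53 in control and high-fat daughters), Sel1l, needed for the lipase to leave the endoplasmic reticulum, by 0.15 ± 0.08, and Apoe by -0.09 ± 0.08. Of 4 lipoprotein receptors and their helpers 3 were higher. Lsr, the lipolysis-stimulated lipoprotein receptor, was 8.06 ± 0.14 (SD) in the 7 controls and 7.85 ± 0.12 in the 6 others, a difference of -0.22 ± 0.07 with a limma adjusted p of 0.529. Lrp1 differed by 0.07 ± 0.05 and its chaperone Lrpap1 by 0.09 ± 0.09.

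Of 18 genes of membrane transport and acyl-CoA formation 15 were higher, with a median of 0.15. As background to this count and those below, 58% of all genes had a higher high-fat mean. In the tenth with the highest levels 83.7% did. Acsl1, the main acyl-CoA synthetase of adipocytes, was 12.55 ± 0.13 (SD, n = 7) and 12.71 ± 0.07 (SD, n = 6), a difference of 0.16 ± 0.06 with a limma adjusted p of 0.529. Acsl4, which prefers arachidonic acid, differed by 0.27 ± 0.13, and Cav2, a caveolar protein, by 0.18 ± 0.10. Of 9 further intracellular carriers 4 were higher and 5 lower, with a median of -0.08. Scp2, a carrier of sterols and lipids, differed by 0.14 ± 0.06, Fabp7, the brain form, by -0.16 ± 0.11 and Fabp9, the testis form, by -0.10 ± 0.08, and the last was dim at 4.70 to 5.17 on all arrays. The high-fat mean was above the control mean for all 6 regulators, by a median of 0.16. The smallest unadjusted limma p among them was 0.0594, that of Ppard. Of them Ppard, a nuclear receptor for fatty acids, differed by 0.13 ± 0.07, Nr1h3 (LXR alpha) by 0.19 ± 0.10 and Cebpa by 0.18 ± 0.09, and Pparg, which is also among the adipocyte markers, by 0.09 ± 0.07.

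Besides Fabp3, 2 carriers or transporters of the list differed widely between animals, and both were named after their values were seen. Pmp2, the myelin member of the carrier family, was 11.42 in high-fat 629, 11.15 in control 656, 10.76 in high-fat 663, 9.92 in control 622, 9.31 in control 627 and 8.69 in control 662, and 6.63 to 7.24 in the other 7. It did not follow Fabp3, since Fabp3 was 8.25 in control 656. Slc27a2, a fatty acid transport protein of liver and kidney, was 7.88, 7.64, 7.17 and 6.97 in 629, 663, 662 and 658, the 4 animals with high Ucp1, and 5.94 to 6.23 elsewhere.

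**Figure D5:**
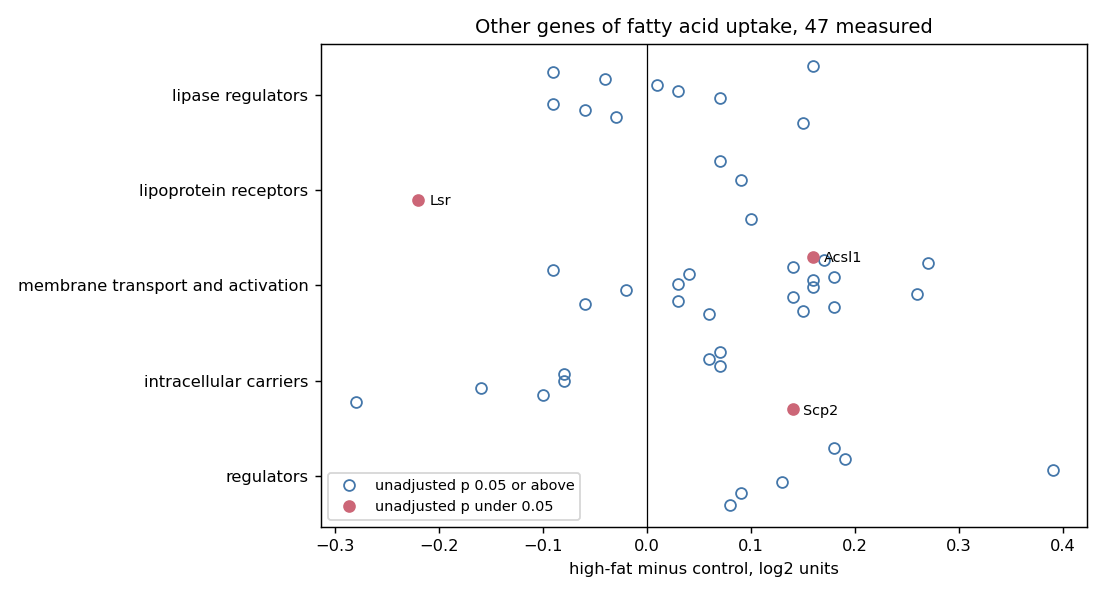
Difference of the group means, high-fat minus control, in log2 units (horizontal axis) for the 47 measured genes of the wider list, by role (vertical axis), 1 point per gene. Filled points have an unadjusted p under 0.05 (Acsl1 and Scp2 higher, Lsr lower), and none passed adjustment over all genes.

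The remaining marker lists gave median group differences of -0.13 for skeletal muscle (13 genes), 0.01 for brown and beige fat (7), -0.02 for fibroblasts and preadipocytes (8), -0.40 for mesothelium (6) and -0.17 for lymphocytes (4), beside 0.09 for adipocytes and 0.10 for endothelium. Mesothelial means were 7.44 to 9.01 in control and 7.49 to 8.64 in high-fat daughters, and their part in the differences described was not tested.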

How the data were processed

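As deposited by the authors, the values are on a log2 scale, for 29214 probes on 13 arrays. RMA and Partek are the tools named, per the submitters' processing notes, without versions or filters. Values run from 3.24 to 14.54. RMA draws arrays toward 1 distribution, which can reduce differences that many genes share. Background and saturation were not assessed, as only the summarised table was used. Per the platform annotation 15310 probes have 1 symbol, 323 have several and 13581 are not listed and stay unnamed here, and the brightest probe of each symbol gave 14506 genes. Entrez identifiers of 15279 probes were found in RefSeq (GRCr8), with 0 symbols changed.

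Groups were compared with limma 3.58.1 in R 4.3.3 (lmFit, eBayes, two-sided, no covariate), adjusted over all genes with a threshold of 0.05, and with two-sided exact permutation tests. Only the limma fit was tested on simulated data, in which genes varied independently of each other. The permutation, covariate and correlation steps were not tested in this way. Pairwise correlations between arrays were 0.946 to 0.995. The members and lists were chosen with earlier results of these data known. Named by rule are the 8 members, 3 genes of smallest p per role, the 3 most alike genes per member and the markers Adipoq, Acta1, Ucp1 and Pecam1. Any other gene was named after its values were seen, among them Plin1, Robo4, Pparg, Myh4, Mb and Myh7. Of the alternative settings, which cover normalization, filters, probes, covariates and each animal left out, 3 were chosen after seeing the data: muscle and brown fat means together as covariates, leaving out the animals with most muscle or Ucp1, and the dimmer Cd36 probe.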

Additional observations from a re-analysis of the deposited data

Results flagged for a closer look

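In 54 sets of values (27 genes in each of the 2 groups) the highest and lowest animals were screened for a gap to the nearest other animal that is large against the whole range of the group. There were 4 such values, and chance gives them in about 5% of groups. Lpl in high-fat daughter 629 was 13.52, with the next high-fat animal at 13.74. Adipoq in the same animal was 13.64, with the next at 13.86. High-fat 629 also had the highest Acta1 and Ucp1 of all animals. Sel1l in control 658 was 9.00, with the next control at 9.40, and Cav2 in control 658 was 11.20, with the next at 11.45.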

How the results depend on the processing

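None of the 8 genes, the 47 related genes or all 14506 genes passed adjustment under any of the 34 other settings, and the median difference of the 8 stayed between 0.03 and 0.13. No paired analysis was possible because the groups share no animal number. At an unadjusted p under 0.05 the count of 2 among the 8 (Fabp4 and Slc27a1) became 4 with the brown fat mean as a covariate, 3 with array weights, with probes averaged, with the dimmer Cd36 probe, with both tissue means as covariates and without control 658 or high-fat 629, and 0 in daughters 656 to 664. The 2 were Fabp4 and Fabp5 after renewed quantile normalization and without control 622 or high-fat 663. It was 1, Slc27a1, with the adipocyte mean as a covariate, and 1, Vldlr, in daughters 619 to 631 and without the animals with most muscle or Ucp1. It was 1, Fabp4, with the number range or the array spread as a covariate, without the 4 animals with most muscle signal, by the exact permutation test, and without control 662, control 664, high-fat 619 or high-fat 620. Over all 14506 genes the count of 1155 became 2179 with array weights, 1994 with both tissue means, 1990 in daughters 619 to 631 and 1473 with the brown fat mean. It was 1419 with centred arrays, 1254 with the muscle mean, 1162 with probes averaged, 1156 with the dimmer Cd36 probe and 979 after renewed quantile normalization. Without the animals with most muscle or Ucp1 it was 627, with the number range 611 and without those with most muscle 550. The adipocyte mean gave 463, the endothelial mean 450, the array spread 407 and daughters 656 to 664 gave 135. With 1 animal left out the count ran from 508 (without high-fat 624) to 2508 (without high-fat 660). There were 2092 over all 29214 probes and 661 among only the genes above the median level, and these 2 counts have other totals. Among the related genes the count of 3 became 12 with both tissue means, 10 with the brown fat mean, 9 with array weights, 7 with centred arrays, 6 with the adipocyte mean, in daughters 619 to 631 and without the animals with most muscle or Ucp1, 5 with the muscle mean and 0 in daughters 656 to 664, and ran from 2 to 6 with 1 animal left out. Fabp4 differed by 0.18 to 0.24 with 1 animal left out and Slc27a1 by 0.20 to 0.34.

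Signs changed as follows, and the cause was not tested. With the adipocyte mean as a covariate Lpl was -0.06, Gpihbp1 -0.01 and Cd36 -0.02. In daughters 619 to 631 Lpl was -0.02 and Gpihbp1 -0.01, and in daughters 656 to 664 Vldlr was -0.10 and Fabp3 -0.32. Fabp3 was 0.00 after renewed quantile normalization and with array weights, -0.08 with the brown fat mean and -0.01 with both tissue means as covariates, and -0.27 to 0.37 with 1 animal left out. The number of arrays limits the precision, and the depth of signal over background is unknown.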
